A study of Mus musculus with 9 samples.

Results

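The numbered zinc finger protein genes are the mouse genes whose symbol is Zfp followed by a number, and 276 of them are described here across untreated neurons and neurons given 2-deoxyglucose (2-DG) at a low and a high dose. The count table names 24060 genes, of which 332 carry such a symbol once Zfp36 is left out, since Zfp36 encodes tristetraprolin, an RNA-binding protein of another zinc finger type. Members had to reach at least 2000 counts summed over all 9 libraries, and 56 numbered genes stayed under that sum. This sum, taken over all doses, is the measured value that chose the members. Just inside the threshold were Zfp839 with 2014 counts and Zfp493 with 2072, and just outside were Zfp438 with 1988 and Zfp931 with 1934. All 276 members passed the filter on low counts, and the lowest count of any member in any library was 115. For 2 members the 3 control libraries summed to under 666.7 counts, a proportional share of the threshold, so their place in the set rests more on the treated libraries.

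The cells were primary immature neurons from mouse embryos of day 14, kept for 2 days in vitro in medium with fetal bovine and horse serum. They were left untreated or received 2-DG at 1 mM or 10 mM for 6 h, with 3 libraries in each group, and no genotype, strain or sex is given in the labels. 2-DG is a glucose analogue that hexokinase phosphorylates and that blocks the further use of glucose. The labels do not say which cultures or litters the replicates came from, so the p-values measure the spread between these libraries, which may be partly technical. The total of the gene counts of a library lay in the range of 40.1 M to 48.2 M (M, mega). Markers of immature neurons such as Tubb3 and Dcx were abundant in every library, with a summed level of the 8 listed markers of 6370 to 6650 CPM (counts per mega counts, after scaling) in the control, 6110 to 6300 CPM at 1 mM and 5240 to 5530 CPM at 10 mM. Among these 8 markers, 3 were lower and 0 higher at 10 mM than in the control. Of 9 markers of microglia and macrophages, 8 were lower at 10 mM than in the control, and their sum was 44.0 to 63.4 CPM in the control, 20.0 to 22.5 CPM at 1 mM and 21.6 to 29.7 CPM at 10 mM. Of 6 markers of radial glia and progenitors, 2 were lower at 10 mM, with a sum of 1200 to 1540 CPM in the control, 988 to 1210 CPM at 1 mM and 922 to 1120 CPM at 10 mM. Of 6 markers of the oligodendrocyte lineage, 2 were lower at 10 mM, with sums of 57.5 to 61.2 CPM in the control, 47.6 to 53.1 CPM at 1 mM and 39.1 to 44.2 CPM at 10 mM. The adult globin genes Hbb-bs, Hbb-bt, Hba-a1 and Hba-a2 were listed at 0 in every library. Counts of the ribosomal RNA gene Rn45s made up 0.96% to 1.05% of a library in the control, 0.589% to 0.884% at 1 mM and 0.534% to 0.563% at 10 mM. In such bulk samples fewer cells of a type and less RNA per cell cannot be told apart, and the part of these shifts in markers and ribosomal RNA in the results below was not tested.

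Most numbered zinc finger genes encode proteins with a row of C2H2 zinc fingers, small folds that each hold a zinc ion and together read a stretch of DNA. In many of them the fingers follow a KRAB domain, which binds the corepressor TRIM28 (also called KAP1); TRIM28 brings in the histone methyltransferase SETDB1 and HP1 proteins, so the DNA site, often in a retroelement, is packed into silent chromatin. The family has grown by local duplication, and neighbouring genes often stand in tandem. Others among the numbered genes have unrelated tasks, such as sensing collided ribosomes, binding double-stranded RNA or regulating neural development.

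At 10 mM 2-DG, 101 of the 276 members were higher and 48 were lower than in the control, and 127 did not pass the threshold. The threshold is an adjusted p under 0.05, where p is that of the quasi-likelihood F test of edgeR and is adjusted after Benjamini and Hochberg over all 15153 genes tested. Each adjusted p below is of this kind, and those with the replicate block come from the same test with that term. The members higher made up 36.6% of the set, against 25.7% of all genes tested and 32.5% of all genes with at least 2000 counts. The members lower made up 17.4%, against 24% of all genes tested and 23.3% of genes with at least 2000 counts. With the replicate number as a block in the fit, 133 members were higher (48.2%) and 72 lower (26.1%), against 43.3% higher and 33.7% lower of genes with at least 2000 counts, and 34.4% and 33.8% of all genes tested. Whether the shares of members and other genes differ was not tested. The median log2 fold change was 0.08 over the members, 0.05 over all genes with at least 2000 counts and -0.01 over all genes tested. When libraries were scaled by their totals alone, 79 members were higher and 68 lower, so that 53.7% of the calls were higher in place of 67.8%, and the median of the members became -0.01, against -0.10 for all genes tested. The changes were small: 15 members moved by more than 1.5-fold in either direction and 1 by more than 2-fold. Summed over the members, the level was 16212 ± 127 CPM at 10 mM and 14967 ± 123 CPM in the control (SD, n = 3 each). The difference was smaller without the TMM factors: as a share of the unscaled counts of a library the members held 1.544%, 1.591% and 1.539% at 10 mM and 1.508%, 1.555% and 1.53% in the control, and these groups overlapped.

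**Figure D1:**
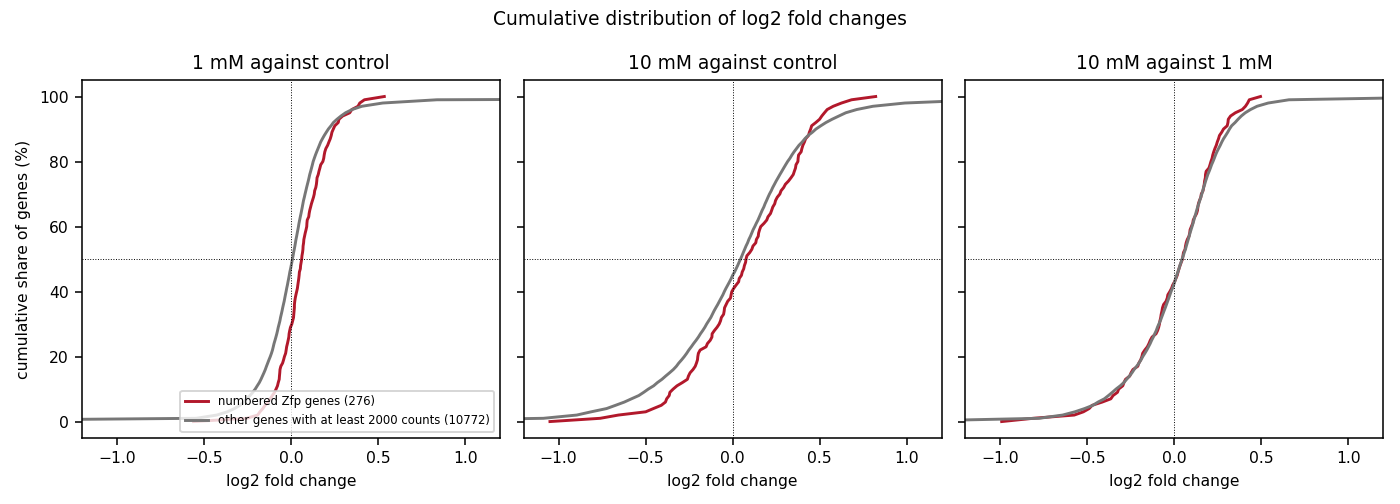
Cumulative share of genes (y axis, %) by log2 fold change (x axis) for the 276 numbered zinc finger genes (red) and the other 10772 genes with at least 2000 counts (grey), for 1 mM against control, 10 mM against control and 10 mM against 1 mM. At its middle the red line lies to the right of the grey one at 1 mM (medians 0.06 and 0.01) and less so at 10 mM (0.08 and 0.05), and both nearly meet there between the doses (0.05 and 0.05). The lines cross towards the upper end, where the 0.99 quantile was 0.42 for members and 0.84 for other genes at 1 mM, and 0.68 and 1.44 at 10 mM.

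Zfp330, which encodes a nucleolar protein, showed the largest rise at 10 mM among the members past the threshold. It stood at 49.0, 48.8 and 47.8 CPM in the control, 65.9, 61.9 and 63.4 CPM with 1 mM and 90.4, 79.2 and 87.6 CPM with 10 mM. No group overlapped another, and the log2 fold change of 10 mM against control was 0.82 ± 0.06 (SE, adjusted p = 1.64e-06). Zfp346, also known as JAZ, binds double-stranded RNA. It stood at 29.4, 31.9 and 29.9 CPM in the control, 41.4, 39.3 and 41.3 CPM with 1 mM and 54.5, 48.6 and 56.7 CPM with 10 mM. Again every library of a higher dose lay above every library of a lower one (log2 fold change 0.81 ± 0.07 at 10 mM, adjusted p = 5.94e-06). Zfp202 encodes a SCAN domain zinc finger protein whose human counterpart represses genes of lipid metabolism. It stood at 22.8, 22.9 and 21.7 CPM in the control, 31.3, 26.0 and 31.0 CPM with 1 mM and 37.3, 34.3 and 37.8 CPM with 10 mM, with no overlap (log2 fold change 0.70 ± 0.08, adjusted p = 5.29e-05).

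Zfp131 encodes a transcription factor with a BTB domain. It stood at 169, 166 and 181 CPM with 10 mM and at 106, 103 and 115 CPM in the control, so the groups did not overlap (log2 fold change 0.67 ± 0.08, adjusted p = 8.57e-05). Zfp511 stood at 37.7, 36.0 and 39.8 CPM with 10 mM, against 24.2, 22.7 and 24.1 CPM in the control (log2 fold change 0.68 ± 0.09). The other large rises were those of Zfp959 (0.64 ± 0.12), Zfp605 (0.61 ± 0.07) and Zfp623 (0.60 ± 0.07), each also without overlap between the groups. Of the 75-base stretches of the longest Zfp959 transcript, 10.0% occur in transcripts of other genes, so part of its reads cannot be told from theirs. At 1 mM, Zfp131 stood at 135, 113 and 143 CPM, and its log2 fold change against control was 0.27 ± 0.08 (adjusted p = 0.0644, and 1.74e-05 with the replicate number as a block).

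Zfp663, a KRAB zinc finger gene, fell furthest at 10 mM. It stood at 7.92, 8.61 and 7.02 CPM in the control, 7.30, 9.18 and 6.16 CPM with 1 mM and 3.67, 5.24 and 2.49 CPM with 10 mM. The 10 mM libraries lay below all others while the other groups overlapped, and the log2 fold change of 10 mM against control was -1.05 ± 0.23 (adjusted p = 0.00367). At these low levels the place of Zfp663 in the set leans on the control and 1 mM libraries. Its fall at 10 mM is therefore not independent of the rule that chose the members. Zfp239, also known as Mok2, encodes a protein that binds DNA and RNA. It stood at 20.1, 20.0 and 17.8 CPM in the control, 18.5, 19.1 and 17.9 CPM with 1 mM and 10.3, 11.8 and 9.64 CPM with 10 mM. Here too the libraries of the high dose stood apart and those of 1 mM and control mixed (log2 fold change -0.87 ± 0.09 at 10 mM, adjusted p = 3.39e-05).

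Zfp367 stood at 32.5, 23.7 and 33.7 CPM in the control, 21.8, 16.2 and 23.0 CPM with 1 mM and 18.1, 14.2 and 18.5 CPM with 10 mM. Replicate 2 was the lowest library of each group, and the treated libraries all lay below the control (log2 fold change -0.82 ± 0.17 at 10 mM, adjusted p = 0.00201). At 1 mM its log2 fold change was -0.56 ± 0.17 (adjusted p = 0.0581, and 1.59e-08 with the replicate block). Zfp217, whose human counterpart is an oncogene product that works with CtBP and CoREST corepressors, stood at 8.00, 10.9 and 8.63 CPM with 10 mM and 12.9, 16.5 and 16.6 CPM in the control (log2 fold change -0.74 ± 0.13). Among the other large falls were Zfp764 (-0.71 ± 0.10), Zfp811 (-0.68 ± 0.09), Zfp839 (-0.63 ± 0.12) and Zfp775 (-0.58 ± 0.09), all without overlap between 10 mM and control. The longest transcript of Zfp764 shares 13.6% of its 75-base stretches with other genes.

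**Figure D2:**
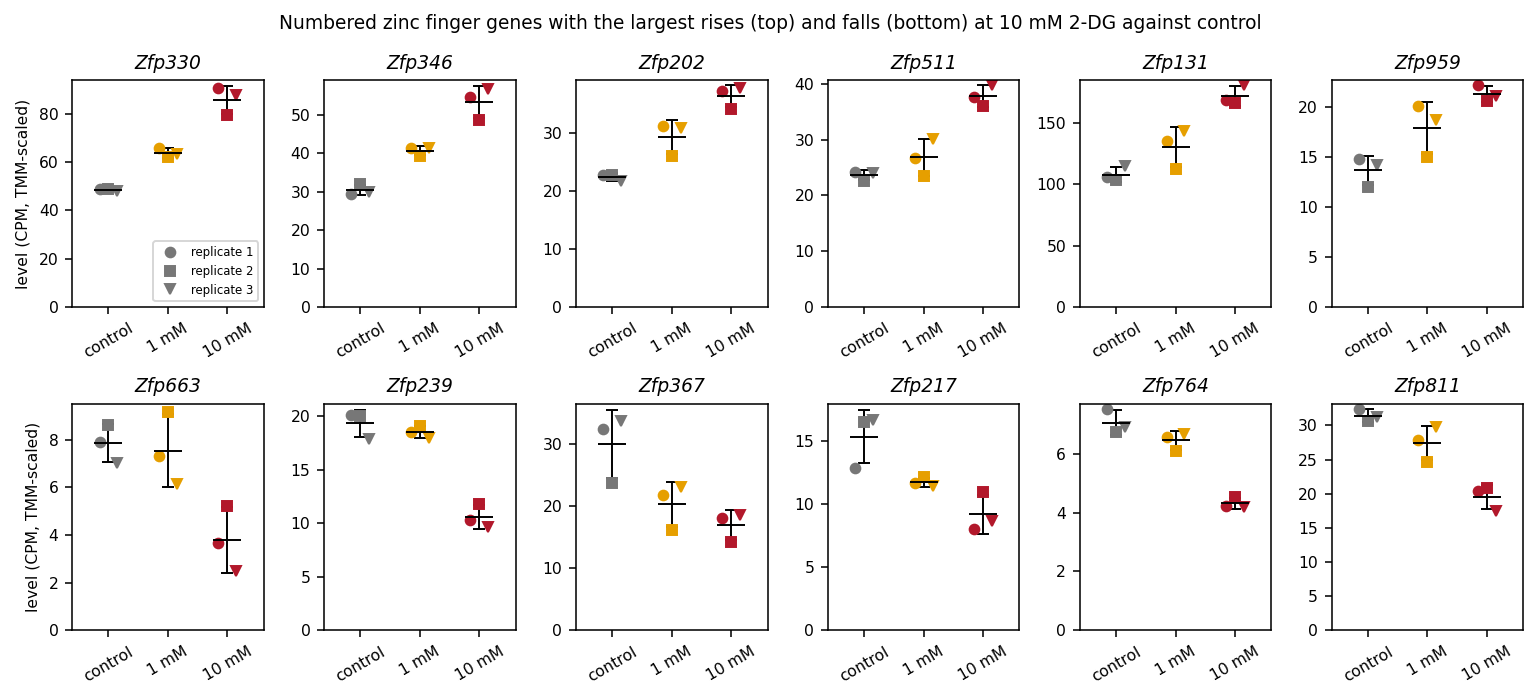
Level (y axis, CPM, from 0) in each library of the 6 members that rose most (top row) and the 6 that fell most (bottom row) at 10 mM against control, by dose; symbols mark the replicate number, and bars the mean and SD of 3 libraries. Zfp330 and Zfp346 step up at both doses, whereas Zfp663 and Zfp239 are low with 10 mM alone.

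The stretch before the transcription start is shown for the 3 members that rose most and the 3 that fell most, to let the sequences of both kinds be compared. Each line gives the 100 bases up to the start, 5′ to 3′ on the gene's strand, from RefSeq promoters on GRCm38.p6, with CG dinucleotides in capitals. CG-rich promoters, known as CpG islands, are common at genes active in many tissues. Where RefSeq lists several starts of a gene, the one with the most CG was taken.
Zfp330, chr8:82774146-82774245, minus strand: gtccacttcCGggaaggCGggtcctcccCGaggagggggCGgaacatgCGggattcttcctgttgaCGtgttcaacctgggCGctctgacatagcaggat
Zfp346, chr13:55105222-55105321, plus strand: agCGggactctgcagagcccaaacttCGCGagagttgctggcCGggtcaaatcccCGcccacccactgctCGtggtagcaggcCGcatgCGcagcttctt
Zfp202, chr9:40192216-40192315, plus strand: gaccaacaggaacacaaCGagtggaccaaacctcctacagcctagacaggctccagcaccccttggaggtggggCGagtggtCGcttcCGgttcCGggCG
Zfp663, chr2:165368737-165368836, minus strand: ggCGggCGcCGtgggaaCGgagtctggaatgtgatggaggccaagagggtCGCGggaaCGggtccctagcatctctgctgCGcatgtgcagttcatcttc
Zfp239, chr6:117862781-117862880, plus strand: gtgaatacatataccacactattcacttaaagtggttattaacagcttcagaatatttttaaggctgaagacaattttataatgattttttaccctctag
Zfp367, chr13:64153200-64153299, minus strand: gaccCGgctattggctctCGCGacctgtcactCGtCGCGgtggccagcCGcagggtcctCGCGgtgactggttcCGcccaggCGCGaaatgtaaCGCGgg
The CG counts of these 100 bases were 7 for Zfp330, 8 for Zfp346, 6 for Zfp202, 8 for Zfp663, 0 for Zfp239 and 14 for Zfp367, so risers and fallers did not differ in one way. Over 300-base windows, which reach from 250 bases before to 50 after the start, 230 of the 276 members matched a RefSeq promoter by symbol. The median CG count was 17 for the matched members higher at 10 mM, 16 for those lower and 16 for those not past the threshold. It was 16.5 over all matched members and 24 over the other genes with at least 2000 counts. Members with a KRAB domain had a median of 12 and members without one a median of 22.

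The series title names the transcription factor ATF4, which binds the letters TTNCATCA (on either strand; N, any base) in many of its target promoters. These letters stood in the window of 2 of the 230 matched members (0.87%), Zfp46 and Zfp672, against 2.54% of the other genes with at least 2000 counts and 4.51% of all RefSeq genes. The stretch up to the start is shown for both, since they are the only members with a match, with the matching letters in capitals.
Zfp46, chr4:136284631-136284675, plus strand: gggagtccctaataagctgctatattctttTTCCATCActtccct
Zfp672, chr11:58330340-58330509, minus strand: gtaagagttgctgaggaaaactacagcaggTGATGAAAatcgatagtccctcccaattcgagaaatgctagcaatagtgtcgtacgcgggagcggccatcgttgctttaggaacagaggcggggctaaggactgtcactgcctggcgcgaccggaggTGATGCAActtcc
Neither gene passed the threshold at 10 mM; with the replicate block Zfp46 did (log2 fold change 0.13, adjusted p = 0.000428), and Zfp672 did not. A match is a description of the letters in this window and no sign of binding.

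At 1 mM 2-DG, 23 members were higher and 2 lower than in the control. That is 8.33% higher, against 5.69% of all genes tested and 6.94% of genes with at least 2000 counts, and 0.725% lower, against 4.34% of each. The median log2 fold change was 0.06 over the members, 0.01 over genes with at least 2000 counts and 0.00 over all genes tested, and 194 of the 276 members (70.3%) had a positive value. With the replicate number as a block, 87 members were higher and 23 lower, against 22.5% higher and 20.8% lower among genes with at least 2000 counts in that fit, 18.1% and 18.3% of all genes tested. The counts depended on single libraries: they were 9 higher and 1 lower when control replicate 1 was left out, 11 and 0 when it was control replicate 3, 8 and 0 for 1 mM replicate 1, 7 and 1 for 1 mM replicate 3, and 14 and 1 for 10 mM replicate 1. When 10 mM replicate 3 was left out, 1 member was lower. The summed level was 15398 ± 111 CPM at 1 mM and 14967 ± 123 CPM in the control (SD, n = 3 each). As a share of unscaled counts it was 1.558%, 1.561% and 1.577% at 1 mM, above the control libraries given earlier.

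Zfp324, a KRAB zinc finger gene, had the largest rise at 1 mM among the members past the threshold. It stood at 75.1, 70.6 and 79.4 CPM with 1 mM, against 51.3, 56.6 and 53.1 CPM in the control, without overlap (log2 fold change 0.48 ± 0.08, adjusted p = 0.00241). At 10 mM it stood at 63.9, 77.0 and 68.3 CPM, overlapping the 1 mM libraries, and its log2 fold change of 10 mM against 1 mM was -0.11 ± 0.07 (adjusted p = 0.309). Zfp605 (0.43 ± 0.07), Zfp346 (0.42 ± 0.07), Zfp786 (0.40 ± 0.07), Zfp330 (0.39 ± 0.06), Zfp202 (0.39 ± 0.08), Zfp623 (0.39 ± 0.07) and Zfp213 (0.38 ± 0.08) followed among those members. The calls of Zfp202 and Zfp213 were lost without 1 mM replicate 1 (adjusted p = 0.0572 and 0.0636) and without 1 mM replicate 3 (0.0539 and 0.0657), and that of Zfp213 also without control replicate 1 (0.057). The members lower at 1 mM were Zfp275 and Zfp664. Zfp275 stood at 44.7, 48.4 and 51.4 CPM with 1 mM, against 59.0, 57.9 and 61.8 CPM in the control (log2 fold change -0.31 ± 0.06, adjusted p = 0.0132). Zfp664 stood at 112, 112 and 115 CPM with 1 mM, against 129, 121 and 132 CPM in the control (log2 fold change -0.18 ± 0.05, adjusted p = 0.0378). Neither overlapped the control, but the call of Zfp275 was lost without control replicate 3 (adjusted p = 0.0603) or 1 mM replicate 1 (0.0618), and that of Zfp664 under 7 of the 9 omissions of a library.

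Between the doses, 62 members were higher at 10 mM than at 1 mM and 40 were lower. That is 22.5% higher, against 17.5% of all genes tested and 23.2% of genes with at least 2000 counts, and 14.5% lower, against 13.7% of each. Both shares were close to those of genes with at least 2000 counts. With the replicate block the counts were 110 and 73, against 40.2% higher and 26.3% lower among genes with at least 2000 counts, 30.7% and 25.6% of all genes tested. Scaled by library totals alone, 29 members were higher and 58 lower, so that 33.3% of the calls were higher in place of 60.8%. Other genes shifted too under that scaling. The median log2 fold change was -0.03 over the members, -0.04 over genes with at least 2000 counts and -0.08 over all genes tested. Without 1 mM replicate 1, 24 members were lower; without 1 mM replicate 2, 35 were higher; the counts were 37 and 23 when 10 mM replicate 1 was left out, and 38 and 22 when it was 10 mM replicate 3.

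Zfp335, a component of histone methyltransferase complexes that neural progenitors need to divide, rose between the doses. It stood at 67.4, 70.1 and 67.9 CPM in the control, 71.9, 71.4 and 69.9 CPM with 1 mM and 99.8, 95.8 and 98.6 CPM with 10 mM. The libraries of the high dose stood apart (log2 fold change of 10 mM against 1 mM 0.46 ± 0.04, adjusted p = 9.38e-05), and at 1 mM against control the log2 fold change was 0.05 ± 0.04 (adjusted p = 0.505). Zfp317 and Zfp180 had the same shape, with log2 fold changes of 10 mM against 1 mM of 0.44 ± 0.05 and 0.41 ± 0.05. Zfp839 stood at 5.25, 5.46 and 5.50 CPM in the control, 5.88, 6.86 and 6.31 CPM with 1 mM and 3.10, 3.56 and 3.81 CPM with 10 mM. Its 1 mM libraries were all above the control ones, a difference that did not pass the threshold (log2 fold change 0.23 ± 0.11, adjusted p = 0.239), and its 10 mM libraries were below both (10 mM against 1 mM, -0.86 ± 0.11, adjusted p = 0.00049). Zfp493 stood at 3.24, 5.34 and 3.25 CPM with 10 mM and 6.31, 8.16 and 6.45 CPM with 1 mM (log2 fold change -0.82 ± 0.24, adjusted p = 0.023), and this call was lost without 1 mM replicate 2, 10 mM replicate 1 or 10 mM replicate 3. Zfp839 and Zfp493 lie just inside the threshold of 2000 counts, and their place in the set leans on the 1 mM libraries. Their falls from 1 mM to 10 mM are therefore not independent of the rule that chose them.

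By the calls of all 3 comparisons, 164 members passed the threshold at least once and 112 never. This and the patterns below were not counted over other genes, so they are not shown to be particular to the members. The comparisons share libraries, so their calls are set side by side and not read as separate evidence. All patterns here come from the fit without the replicate block. With the block, 87 members were higher and 23 lower at 1 mM, in place of 23 and 2. A pattern without a call at 1 mM therefore depends on the fit, and the patterns were not counted with the block. A rise at each step (1 mM over control, 10 mM over 1 mM, 10 mM over control) was called for 13 members, which were Zfp12, Zfp61, Zfp106, Zfp110, Zfp202, Zfp330, Zfp346, Zfp426, Zfp606, Zfp622, Zfp623, Zfp942 and Zfp954. Between the doses, the call of Zfp202 was lost under 3 of the 9 omissions of a library, that of Zfp623 under 6 and under scaling by totals alone (adjusted p = 0.136), and that of Zfp110 under all 9 and under scaling by totals alone (adjusted p = 0.255). Another 47 were higher at 10 mM than in both other groups with no call at 1 mM, and 33 were called higher against the control alone. On the way down, 27 were lower at 10 mM than in both other groups with no call at 1 mM, and no member was called lower in all 3 comparisons. The pair Zfp213 and Zfp661, named after their values were seen, was higher at 1 mM than in the control and lower at 10 mM than at 1 mM. Zfp661 stood at 14.0, 16.0 and 13.3 CPM in the control, 19.3, 17.6 and 18.9 CPM with 1 mM and 12.5, 14.8 and 12.7 CPM with 10 mM, so the 1 mM libraries lay above all others. Of the 25 members called at 1 mM, 23 were called in the same direction at 10 mM, and 0 in the opposite direction.

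**Figure D3:**
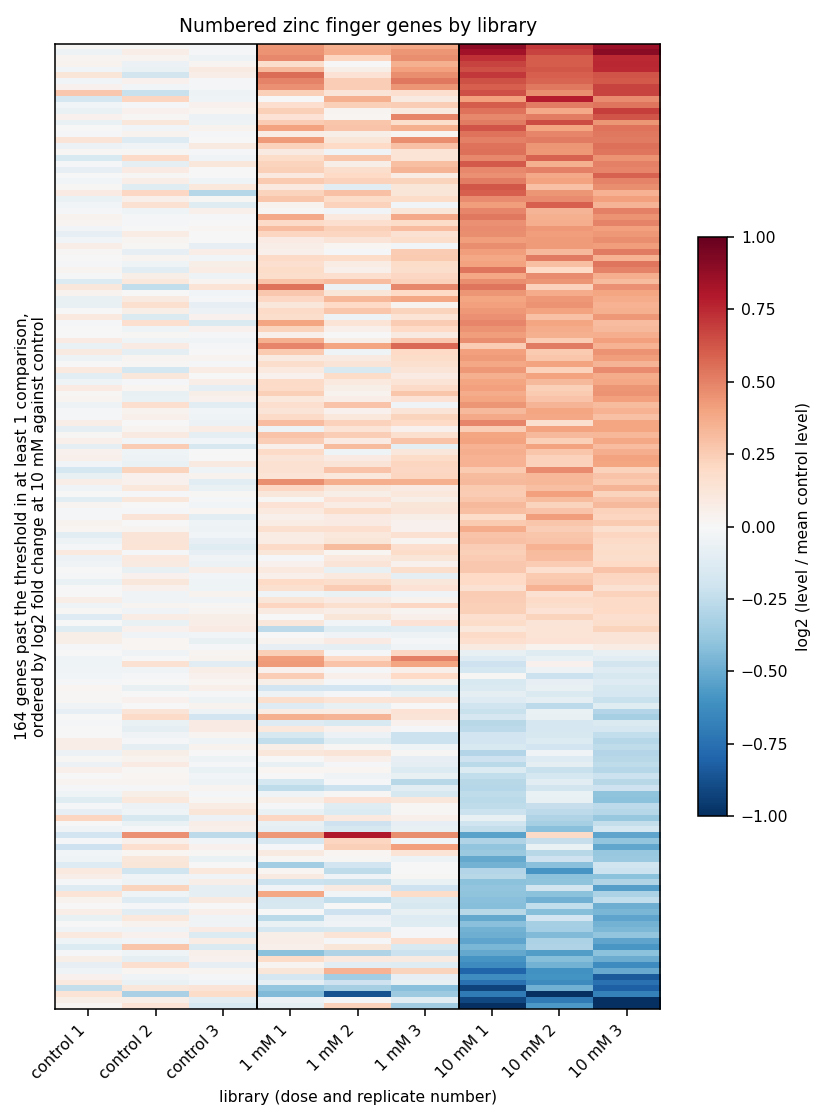
Level of the 164 members past the threshold in at least 1 comparison (rows, ordered by log2 fold change at 10 mM against control) in each of the 9 libraries (columns, control, 1 mM and 10 mM with their replicate numbers), as log2 of the level over the mean of the control libraries. The rows at the top are red at both doses and deeper at 10 mM, such as Zfp330 (log2 fold changes 0.39 and 0.82), and the rows at the bottom are blue mainly at 10 mM, such as Zfp239 (-0.06 and -0.87).

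Of 9 members with tasks in RNA or ribosome handling, 4 were higher (44.4%) and 2 lower (22.2%) at 10 mM (6 and 3 with the replicate block), 3 were higher and 0 lower at 1 mM, and their median log2 fold change at 10 mM was 0.20. The counts of this and the following lists stand beside the shares of genes with at least 2000 counts, 32.5% higher and 23.3% lower at 10 mM (43.3% and 33.7% with the block) and 6.94% and 4.34% at 1 mM (22.5% and 20.8% with the block). With so few members a list can be near those shares, and no list was tested as a whole. Zfp598 encodes the ubiquitin ligase that senses collided ribosomes. It stood at 71.9, 68.0 and 78.6 CPM with 10 mM, against 52.2, 52.6 and 52.1 CPM in the control, without overlap (log2 fold change 0.48 ± 0.06, adjusted p = 0.000105). Zfp622, whose yeast counterparts act in maturation of the large ribosomal subunit, stood at 59.0, 57.0 and 57.6 CPM in the control, 66.1, 65.1 and 65.7 CPM with 1 mM and 79.4, 74.6 and 81.7 CPM with 10 mM. Each dose lay above the one before it (log2 fold change 0.44 ± 0.05 at 10 mM, adjusted p = 3.57e-05; 0.18 ± 0.05 at 1 mM, adjusted p = 0.0386, lost under 7 of the 9 omissions of a library). Zfp106, an RNA-binding protein needed to maintain motor neurons, rose as well (log2 fold change 0.51 ± 0.05 at 10 mM and 0.24 ± 0.05 at 1 mM, the call at 1 mM being lost without control replicate 1, 1 mM replicate 1 or 1 mM replicate 3). The members lower at 10 mM were Zfp326, part of a complex that links transcription to splicing (-0.36 ± 0.12), and Zfp706 (-0.14 ± 0.04). The call of Zfp326 was lost when control replicate 1, 10 mM replicate 2 or control replicate 3 was left out, and that of Zfp706 without 10 mM replicate 3.

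Of 15 members known from neural development, 3 were higher and 3 lower at 10 mM (8 and 3 with the replicate block), 1 was higher and 0 lower at 1 mM (2 and 3 with the block), and the median log2 fold change at 10 mM was 0.10. Zfp110, also known as NRIF, binds the neurotrophin receptor p75. It stood at 45.8, 46.7 and 47.3 CPM in the control, 57.7, 55.1 and 57.6 CPM with 1 mM and 64.8, 62.8 and 62.0 CPM with 10 mM. The groups did not overlap (log2 fold change 0.44 ± 0.05 at 10 mM, adjusted p = 3.1e-05; 0.29 ± 0.05 at 1 mM, adjusted p = 0.00334). Zfp536, a repressor of neuronal differentiation, rose at 10 mM (0.27 ± 0.05), as did Zfp335. Zfp219 (-0.38 ± 0.07), Zfp462 (-0.26 ± 0.06) and Zfp521 (-0.20 ± 0.07), which promotes the neural fate of embryonic stem cells, fell. The call of Zfp521 was lost without control replicate 3 or 10 mM replicate 1. Zfp423, a regulator of cerebellar development, had a log2 fold change of 0.11 ± 0.10 at 10 mM (adjusted p = 0.396, and 0.0183 with the replicate block).

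Of 11 members that work with chromatin complexes or corepressors, 4 were higher and 3 lower at 10 mM, and 0 in either direction at 1 mM (3 and 4 with the replicate block). Besides Zfp131, the members higher were Zfp91 (0.42 ± 0.08), Zfp410 (0.38 ± 0.08) and Zfp592 (0.35 ± 0.07), and besides Zfp217 the members lower were Zfp687 (-0.27 ± 0.07) and Zfp827 (-0.26 ± 0.06). Zfp410 is known as an activator of Chd4, the gene of the remodelling ATPase of the NuRD complex. Zfp410 stood at 96.5, 87.0 and 99.0 CPM with 10 mM, against 77.2, 68.1 and 72.4 CPM in the control. Chd4 averaged 370 ± 23.0 CPM at 10 mM and 585 ± 36.6 CPM in the control (SD, n = 3 each), with a log2 fold change of -0.66 ± 0.06 (adjusted p = 9.12e-06), so that the gene and its known activator moved in opposite directions in these libraries.

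Of 7 members known for guarding imprints or silencing retroelements, 0 were higher and 2 lower at 10 mM, and 0 were called in either direction at 1 mM (2 and 1 with the replicate block). Zfp57, which keeps methylation at imprinted genes, stood at 137, 165 and 127 CPM with 10 mM, against 127, 151 and 128 CPM in the control. These groups overlapped (log2 fold change 0.08 ± 0.10, adjusted p = 0.571). Zfp445, which acts on the same imprints, had a log2 fold change of 0.06 ± 0.05 (adjusted p = 0.397), and Zfp809, which silences retroviral DNA, of 0.13 ± 0.14 (adjusted p = 0.475). Zfp961 fell (-0.42 ± 0.08, adjusted p = 0.00116), as did Zfp568, a repressor of a placental Igf2 transcript (-0.23 ± 0.07, adjusted p = 0.0165, lost without 10 mM replicate 1).

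**Figure D4:**
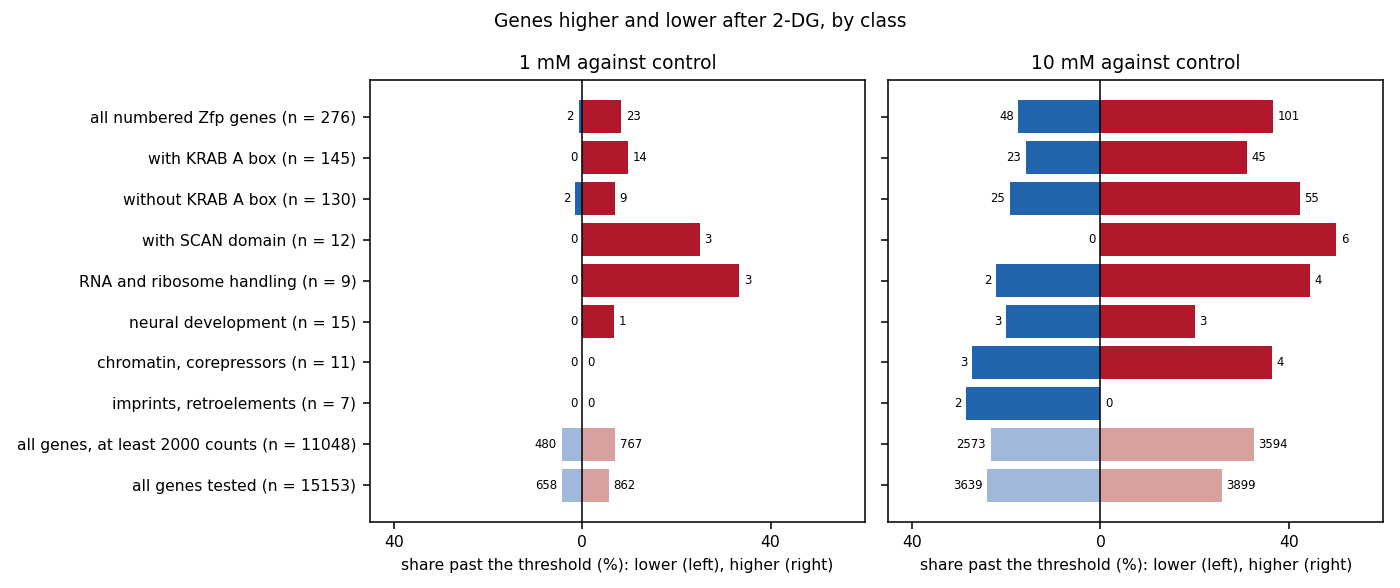
Share of genes (x axis, %) higher (red, right) and lower (blue, left) than in the control, with 1 panel for each dose, for all numbered zinc finger genes, for their domain and role classes, and in pale colours for all genes with at least 2000 counts and all genes tested; figures beside the bars are numbers of genes. At 10 mM, members without a KRAB domain were higher in 55 of 130 (42.3%) and those with one in 45 of 145 (31%). The share was 32.5% among all genes with at least 2000 counts.

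A KRAB A box was found by a sequence pattern in at least 1 annotated coding sequence of 145 members and in none of 130 others. A further member, Zfp939, is annotated as a pseudogene and has no class. The number of C2H2 fingers found in the longest coding sequence ranged from 0 to 36 with a median of 11. Of the members with a KRAB A box, 45 were higher (31%) and 23 lower (15.9%) at 10 mM (58 and 40 with the replicate block), with a median log2 fold change of 0.04. Of those without one, 55 were higher (42.3%) and 25 lower (19.2%) (74 and 32 with the block), with a median of 0.14. Between the doses, 26 with a KRAB A box were higher and 25 lower at 10 mM than at 1 mM (43 and 43 with the block), against 36 and 15 of those without (66 and 30 with the block). At 1 mM against control, 14 were higher and 0 lower among members with a KRAB A box (48 and 6 with the block) and 9 and 2 among those without (38 and 17 with the block), which is 9.66% and 6.92% higher. With a narrower pattern, chosen first, these shares were 8.05% of 87 and 8.51% of 188 members, so their order at 1 mM depended on the pattern. Of genes with at least 2000 counts, 32.5% were higher and 23.3% lower at 10 mM (43.3% and 33.7% with the block). Between the doses these shares were 23.2% and 13.7% (40.2% and 26.3% with the block), and at 1 mM 6.94% and 4.34% (22.5% and 20.8% with the block). The share of KRAB members higher at 10 mM was thus near that of genes with at least 2000 counts. Whether the classes differ was not tested. Of the 12 members with a SCAN domain, which joins such proteins in pairs, 6 were higher and 0 lower at 10 mM (7 and 1 with the block). The 6 were Zfp110, Zfp191, Zfp202, Zfp263, Zfp287 and Zfp446, named after their values were seen, with log2 fold changes of 0.26 to 0.70. By number of fingers, 13 of 40 members with up to 4 were higher at 10 mM (32.5%, and 23 members with the block), 36 of 78 with 5 to 9 (46.2%), 34 of 100 with 10 to 14 (34%), and 17 of 57 with 15 or more (29.8%). All but the share with 5 to 9 fingers were near the 32.5% of genes with at least 2000 counts. The class with 5 to 9 fingers also had the largest share lower. By rising number of fingers the shares lower were 17.5%, 24.4%, 10% and 21.1%. With the block the shares higher were 57.5%, 55.1%, 45% and 36.8% in the same order, so that class did not stand out in that fit.

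The genes of the machinery that KRAB zinc finger proteins recruit moved in both directions. Of 24 such genes tested, 5 were higher and 7 lower at 10 mM, and 0 were higher and 4 lower at 1 mM (2 and 11 with the replicate block). Trim28 averaged 970 ± 44.0 CPM at 10 mM and 843 ± 24.5 CPM in the control (SD, n = 3 each; log2 fold change 0.20 ± 0.04, adjusted p = 0.0036), and Setdb1 averaged 174 ± 4.16 CPM at 10 mM and 154 ± 4.14 CPM in the control (0.18 ± 0.04, adjusted p = 0.00579). Atrx, Daxx and Pphln1 were also higher (0.33 ± 0.05, 0.32 ± 0.05 and 0.33 ± 0.06). The genes lower at 10 mM were Cbx3 (-0.19 ± 0.07) and Cbx5 (-0.39 ± 0.05), which encode HP1 proteins, Chd3 (-0.31 ± 0.04) and Chd4 of the NuRD complex, the deacetylase gene Hdac1 (-0.52 ± 0.12), the DNA methyltransferase gene Dnmt3a (-0.26 ± 0.04) and Uhrf1 (-1.31 ± 0.20), whose product guides maintenance methylation after replication. Uhrf1 is expressed mainly in dividing cells, and 2 of the 6 progenitor markers given above were lower in the same libraries; their part in its fall was not tested.

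Numbered zinc finger genes stood close to each other: 152 of the 276 members fell into 42 groups in which neighbours lay within 100 kb (coordinates of GRCm38), and 76 members were on chromosome 7. Neighbours share sequence and at times reads, so they are not independent. The counts of the groups come from the fit without the replicate block. In that fit 36.6% of all members were higher and 17.4% lower at 10 mM, and 32.5% and 23.3% of genes with at least 2000 counts. Groups this small can lie near those shares, and whether any group differs from them was not tested. The group at chr6:47819266-48086593, with the 7 members Zfp786, Zfp398, Zfp282, Zfp212, Zfp956, Zfp777 and Zfp746, had 5 higher and 0 lower at 10 mM, and all its log2 fold changes lay between 0.15 and 0.39. The group at chr7:127233061-127449158, with the 7 members Zfp553, Zfp771, Zfp768, Zfp747, Zfp764, Zfp688 and Zfp689, had 0 higher and 5 lower, with log2 fold changes between -0.71 and -0.05. The longest group, 15 members at chr7:29768552-30169750 from Zfp84 to Zfp146, had 8 higher and 1 lower, which was Zfp568. Other groups were mixed, such as the 9 members at chr7:24081924-24316666 with 4 higher and 1 lower, and the 8 members at chr17:32765496-33110705 with 2 higher and 3 lower. The groups were picked by size and described after their values were seen.

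**Figure D5:**
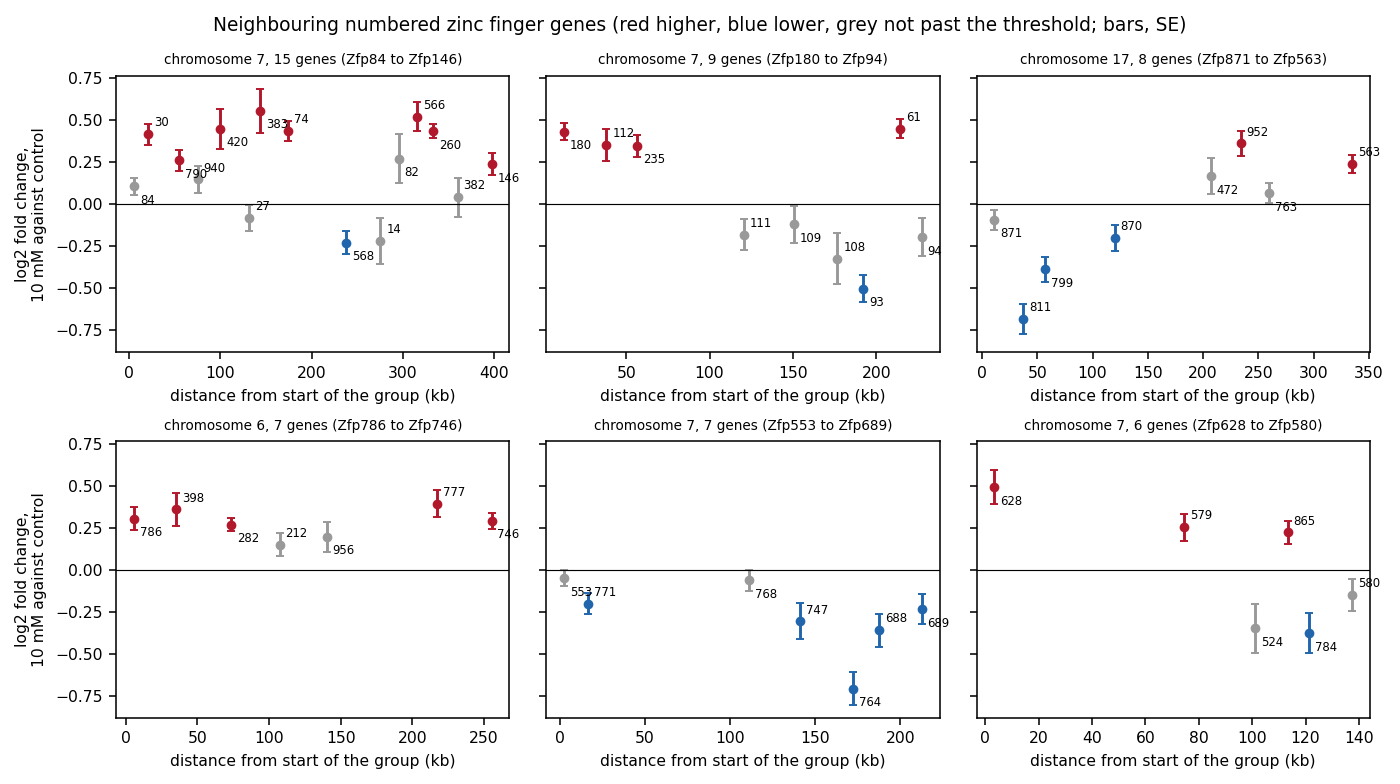
Log2 fold change at 10 mM against control (y axis, bars are SE) of the members of the 6 largest groups of neighbouring numbered zinc finger genes, by distance from the start of the group (x axis, kb); points are red where higher, blue where lower and grey where not past the threshold, with the number of each Zfp symbol beside it. The group from Zfp786 to Zfp746 lies wholly above 0 and that from Zfp553 to Zfp689 wholly below 0.

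The direction at 10 mM moved with total count, the measure that chose the members. Of the 19 members with 2000 to 4000 counts, 0 were higher and 7 lower (2 and 11 with the replicate block), with a median log2 fold change of -0.32. Of other genes of that range, 11.5% were higher and 34.8% lower, with a median of -0.16, so that the 36.8% of members lower were near their background. Of the 71 members with 16000 to 32000 counts, 38 were higher (53.5%) and 13 lower (18.3%), against 40.8% and 20.5% of other genes (medians 0.21 and 0.10). Of the 57 with at least 32000 counts, 21 were higher (36.8%) and 8 lower (14%), against 42% and 18.3% of other genes (medians 0.07 and 0.10). Among the 38 numbered genes under 2000 counts that could be tested, 1 was higher and 8 lower at 10 mM (2 and 14 with the block). Per kb of exon, the highest members were Zfp428 (101 CPM per kb as mean of the 9 libraries), Zfp207 (50.9), Zfp266 (49.9), Zfp740 (48.3), Zfp146 (44.7) and Zfp358 (38.9). Of these, Zfp428 (0.15 ± 0.05), Zfp146 (0.24 ± 0.07) and Zfp358 (0.34 ± 0.06) had log2 fold changes past the threshold at 10 mM, and the calls of Zfp428 and Zfp146 were lost when libraries were scaled by their totals alone (adjusted p = 0.343 and 0.0702) or without control replicate 2. The call of Zfp428 was also lost without control replicate 3, 10 mM replicate 1 or 10 mM replicate 2.

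Because relatives in this family resemble each other, reads can fall on the wrong member. For 30 members, over 5% of the 75-base stretches (the read length) of their longest transcript occur in transcripts of other genes, up to 100% for Zfp708 and Zfp935. The other genes can be relatives or genes annotated over the same place, and these were not told apart. Another gene overlaps 114 members, 88 of them on the opposite strand, and the strand setting of the counting is not given in the sources used here. For the 151 members with neither limit, 60 were higher (39.7%) and 21 lower (13.9%) at 10 mM (79 and 32 with the replicate block). Among genes with at least 2000 counts, 32.5% were higher and 23.3% lower (43.3% and 33.7% with the block). The 30 members with shared stretches had 9 higher (30%) and 7 lower (23.3%). The 114 overlapped members had 38 higher (33.3%) and 23 lower (20.2%). Whether these sets differ was not tested.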

How the data were processed

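RNA was measured in 9 libraries of primary mouse neurons, 3 each from untreated cultures and from cultures with 1 mM or 10 mM 2-DG, grouped by the library titles. Per the labels' protocols, cDNA was made by whole-transcriptome amplification, libraries with a stranded kit and ribosomal RNA removal, and 75-base paired-end reads were aligned to mm10 with STAR 2.4.0; the submitters' processing notes also name bcl2fastq 2.17 and HTSeq. Which gene annotation was counted, and whether by strand, is not given in the sources used here. The authors deposited raw read counts per gene, whole numbers in 24061 rows; 1 row names no gene and was left out (4 rows share symbols altered by spreadsheets).

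Low genes were removed with filterByExpr (minimum count 10, minimum total 15), libraries were scaled by TMM (factors 0.953 to 1.03), and genes were tested with edgeR 4.0.16's quasi-likelihood test (two-sided, Benjamini-Hochberg over 15153 genes, threshold 0.05) in 1 fit of 3 groups without a block, in R 4.3.3. SE is the size of the log2 fold change divided by the square root of F, which covers counting error and the scatter of libraries only. CPM use TMM factors.

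Libraries with the same replicate number deviated together from their group means (correlations 0.539 to 0.699 over all genes for 9 pairs, against -0.497 to -0.101 for other numbers). Deviations from group means make the values of other numbers negative when those of the same number are positive, so this contrast is partly built in. The positive correlations are read as a pairing of the libraries by number. No source states a pairing, so the main fit has no block. Values of a fit with the replicate number as a block are given beside the counts of the whole set. They are also given where they end or add a call of a named member or move a count by over 1.5 times. Named members were the 8 with the largest rise and fall past the threshold in each comparison, the role lists, the 6 highest per kb and those beside the threshold. Members and lists were chosen with earlier results of these data known. Positions, exon lengths, coding sequences and overlaps come from GENCODE vM21 (GRCm38), with 275 members matched by symbol and 1, Zfp191, by an older name, and promoters from RefSeq (GRCm38.p6). KRAB A boxes were found with a pattern written after a narrower one was seen to miss common forms. Alternatives were DESeq2 1.42.0, RLE size factors, library totals, no filter, the block and each library left out.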

Additional observations from a re-analysis of the deposited data

How the results depend on the processing

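The counts of members called at 10 mM against control stayed within 1.5 times of 101 higher and 48 lower under each alternative run, and in none of the 3 comparisons was a member called in both fits called in opposite directions; under library totals the median log2 fold change of the members, 0.08 at 10 mM against control and 0.05 between the doses, became -0.01 and -0.03. Over all genes tested these medians were -0.10 and -0.08 under library totals. The replicate block gave 133 and 72 at 10 mM against control, 87 and 23 at 1 mM against control, and 110 and 73 between the doses, and it ended no call of a named member. At 1 mM against control DESeq2 gave 34 and 4, and scaling by library totals 20 and 3; between the doses library totals gave 29 higher and 58 lower. Leaving out each library in turn gave 87 to 99 higher and 35 to 58 lower at 10 mM against control, 7 to 26 and 0 to 3 at 1 mM against control, and 35 to 52 and 22 to 51 between the doses. Under these omissions 8 of 48 named calls at 10 mM against control, 6 of 13 at 1 mM and 11 of 35 between the doses were lost at least once; library totals lost 2, 0 and 3, no filter lost 1, 2 and 3, and DESeq2 and RLE lost 0. The cause was not tested. The KRAB pattern of the text was chosen after seeing the data; with the narrower pattern chosen first, 22 members with a KRAB A box were higher at 10 mM and 16 lower, in place of 45 and 23; it finds 87 such members in place of 145, and 25.3% of them were higher in place of 31%. At this depth, the SE of a log2 fold change at 10 mM was 0.24 for Zfp493 with 2072 counts and 0.04 for the more abundant Zfp335.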

Other observations

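Other zinc finger families were tested in the same fit, in which 32.5% of genes with at least 2000 counts were higher and 23.3% lower at 10 mM. Of 39 Zbtb genes tested, which pair fingers with a BTB domain, 14 were higher (35.9%) and 6 lower (15.4%) at 10 mM than in the control, and 3 higher and 0 lower at 1 mM (14 and 5 with the replicate block). Zbtb38, which binds methylated DNA, averaged 84.2 ± 1.84 CPM at 10 mM and 43.1 ± 2.21 CPM in the control (SD, n = 3 each; log2 fold change 0.97 ± 0.06, adjusted p = 8.17e-07 by edgeR). Of 20 Zscan and Zkscan genes, 7 were higher (35%) and 5 lower (25%) at 10 mM, so the shares higher of both families lay near that background. Zkscan7 averaged 3.66 ± 0.652 CPM at 10 mM and 6.84 ± 0.349 CPM in the control (log2 fold change -0.90 ± 0.13). Of 14 Klf genes, Krüppel-like factors, 6 were higher and 5 lower at 10 mM. Klf10 averaged 75.3 ± 9.87 CPM at 10 mM and 15.7 ± 2.82 CPM in the control (log2 fold change 2.26 ± 0.13, adjusted p = 5.49e-07), Klf4 14.0 ± 1.85 CPM at 10 mM and 6.42 ± 0.713 CPM in the control (1.12 ± 0.13), and Klf15 3.91 ± 0.108 CPM at 10 mM and 9.80 ± 2.83 CPM in the control (-1.33 ± 0.19). The changes of these Klf genes were larger than that of any numbered zinc finger gene among the 276. These genes were named after their values were seen.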
